A study of Mus musculus with 6 samples.

Results

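The nuclear-encoded subunits of the mitochondrial respiratory chain were followed in tumor endothelial cells (TECs) from LLC tumors, which form after inoculation of the mouse line Lewis lung carcinoma. The members are the rows named Nduf (series a, b, c, s and v with a number), Sdha to Sdhd, Uqcr, Cox4 to Cox8, Atp5, Cyc1 and Cycs, without Ndufa4l2 and Cox4i2, and they number 84 of the 23473 RefSeq rows of the table. TECs came from 3 wild type C57BL/6 mice (Ctrl) and 3 NICeCA mice of the same strain, with an age of 8 weeks in the labels of both groups. NICeCA mice carry a Cre-ERT2 driven by Cdh5, the VE-cadherin gene, and a Rosa26 allele in which a floxed stop precedes the Notch1 intracellular domain, so that tamoxifen turns on Notch signaling without ligand in cells that express Cdh5. CD31-coated beads captured the cells, and RNA was sequenced after removal of ribosomal RNA. Each library has 1 RPKM value per row, which is its reads divided by the row's length and by the library total. All fold changes are NICeCA minus Ctrl on the scale of log2(RPKM + 1), and a gene is called when its adjusted p in limma's moderated test over 12320 RefSeq rows with a mean of at least 1 RPKM is under 0.05 (Benjamini-Hochberg). The group was picked because it stood out in this same contrast, so the fold changes and calls of its members are given as a description and support nothing on their own.

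The respiratory chain sits in the inner mitochondrial membrane. Complex I takes electrons from NADH and complex II from succinate, both pass them to ubiquinone, complex III hands them to cytochrome c, and complex IV gives them to oxygen. Complexes I, III and IV pump protons, and complex V, the ATP synthase, uses the proton gradient to make ATP. A few hydrophobic subunits are encoded by mitochondrial DNA, and the rest, those described here, by nuclear genes whose products are imported. Complexes I and III have catalytic core subunits and many small supernumerary subunits around them. Endothelial cells make much of their ATP by glycolysis, and their respiratory chain is known for its part in redox balance and biosynthesis during proliferation.

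Nuclear respiratory genes are known for promoters with sites of NRF1, ETS factors (GABP) and YY1, and these promoters are shown because many members moved together. RefSeq promoters (GRCm38, 250 bases before to 50 after the start) were matched to 68 of the 84 members and compared with those of 9253 genes. These 9253 passed the filter of the fit or are members, and they include the 68. The letters searched on both strands were the NRF1 core palindrome (the first run of capitals in the promoters printed here), CCGGAAG for ETS and AAGATGGC for YY1. The letters were present in 7.35% against 2.17% of promoters for NRF1, 22.1% against 19.6% for ETS and 13.2% against 4.91% for YY1, members before all 9253 genes. At least 1 of these motifs was in 27 of the 68 members (39.7%) and in 25.1% of all. TNAAGGTCA, the extended site of estrogen-related receptors, was in 4.41% of members (Atp5g3, Ndufb4 and Sdhd) and 0.648% of all. TGGGAA, a core of sites for RBPJ, the DNA-binding partner of Notch, was in 19.1% of members and 22.7% of all, and GGGCGGG, the SP1 box, in 32.4% and 48.8%. CCAAT was in 44.1% and 38.8%, the E-box CACGTG in 8.82% and 10.3%, and TATAAA in 10.3% and 7.41%. These are letter matches, not shown binding sites. Cox6a1, a ubiquitous complex IV subunit, and Atp5k, the e subunit of complex V, hold both NRF1 and ETS letters, which are in capitals here.
Cox6a1 promoter, chr5:115348909-115349208, minus strand: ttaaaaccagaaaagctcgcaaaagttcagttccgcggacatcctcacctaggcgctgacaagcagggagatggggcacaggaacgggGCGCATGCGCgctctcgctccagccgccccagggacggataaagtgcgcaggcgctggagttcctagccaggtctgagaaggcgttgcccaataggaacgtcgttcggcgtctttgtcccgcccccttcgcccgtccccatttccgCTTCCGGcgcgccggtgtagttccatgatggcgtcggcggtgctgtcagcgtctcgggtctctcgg
Atp5k promoter, chr5:108434350-108434649, minus strand: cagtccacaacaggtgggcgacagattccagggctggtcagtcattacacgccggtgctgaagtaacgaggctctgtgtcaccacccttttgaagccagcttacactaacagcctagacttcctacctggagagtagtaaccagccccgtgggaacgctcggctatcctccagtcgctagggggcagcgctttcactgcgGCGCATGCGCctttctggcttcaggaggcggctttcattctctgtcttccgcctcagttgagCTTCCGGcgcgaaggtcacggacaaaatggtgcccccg

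The YY1 letters lay in a narrow place. In 8 of the 68 members (11.8%) they were within the bases +20 to +49 after the start, always on the strand of the gene. The share was 1.63% of all 9253 genes. This window was chosen after the positions had been seen. The letters contain ATG, and whether it is the start codon was not determined. The 8 windows of 30 bases are given with the YY1 letters in capitals.
Atp5j2, first capital at +24, chr5:145191493-145191522, minus strand: cttcAAGATGGCgtcactcggtgagtactc
Ndufa3, first capital at +23, chr7:3617392-3617421, plus strand: aacAAGATGGCcgggagtaagtacaggttt
Ndufa9, first capital at +30, chr6:126849096-126849125, minus strand: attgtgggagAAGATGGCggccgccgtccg
Ndufb8, first capital at +39, chr19:44555394-44555423, minus strand: gtgaaccgcggagaaggtgAAGATGGCtgc
Ndufc1, first capital at +23, chr3:51408907-51408936, minus strand: aacAAGATGGCgccgtccgtagtgctgcgc
Ndufs4, first capital at +36, chr13:114388046-114388075, minus strand: ggcgtttgcctacaggAAGATGGCggcggt
Ndufs6, first capital at +34, chr13:73328434-73328463, minus strand: caagggtcaccggcAAGATGGCggcggtgc
Ndufs7, first capital at +25, chr10:80249468-80249497, plus strand: aggccAAGATGGCggcgctggcgggtgagt
Of these 8 genes, 7 belong to complex I, and Atp5j2, the f subunit of complex V, was the only one of the 8 that was called higher.

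Before any result, the libraries need a description. The reads recovered from the RPKM values on RefSeq rows ranged from 27793301 to 30769916, and the members took 0.478, 0.501 and 0.504% of them in Ctrl and 0.660, 0.586 and 0.547% in NICeCA libraries. The labels call the cells endothelial, and all 14 endothelial markers (Pecam1, Cdh5, Kdr and others) were above 0, with a summed level of 257 to 651 RPKM in Ctrl and 560.3 to 729.9 RPKM in NICeCA libraries. All 14 had a positive log2 fold change, with a median of 0.66 and 2 called higher, and their part in the members' values was not tested. Markers of other cells were present as well, above all those of macrophages, at 6376 to 9353 and 4258 to 8003 RPKM, which was more than the endothelial sum in every library. Neutrophil markers were at 128 to 287 RPKM in Ctrl and 670.1 to 1762 RPKM in NICeCA libraries, with 8 of the 9 tested called higher. Erythroid and platelet markers summed to 139.9 to 211 and 1197 to 1312 RPKM, pericyte markers to 26.6 to 42.5 and 57.3 to 104.8 RPKM, and fibroblast markers to 322 to 559.7 and 154 to 312 RPKM. Only 3 of the 7 tested erythroid and platelet markers had a positive log2 fold change. Their median was -0.37 and 2 were called higher, so the rise in their sum does not hold for most of the list. Lymphocyte markers (40.0 to 63.1 and 34.2 to 53.6 RPKM), epithelial markers (6.86 to 13.0 and 6.66 to 8.87 RPKM), skeletal muscle markers (9.97 to 32.5 and 11.3 to 14 RPKM) and adipocyte markers (58.2 to 262 and 163 to 315 RPKM) overlapped between the groups. No marker of these 10 lists was at 0 in all libraries, while Epcam, Krt8 and 4 other epithelial genes, Mb, Myh4 and 2 other muscle genes, and Adipoq, Ucp1 and 5 other adipocyte genes stayed under 1 RPKM in every library. In such a mixture, a change in the number of cells of a type and a change in RNA per cell cannot be told apart, and the part of these cell types in the results was not tested.

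The members were higher in NICeCA TECs by a modest median amount, which varied between genes and complexes. Their summed level was 4257, 4494 and 4448 RPKM in Ctrl and 6260, 5572 and 5125 RPKM in NICeCA libraries, a ratio of group means of 1.28, with no overlap between the groups. Of the 84 members, 80 passed the filter, 78 of these had a positive log2 fold change, and the median was 0.34 (range -0.36 to 0.81), against -0.05 over all tested genes. The number of positive members was 79 with trimmed mean scaling, 78 with voom on the recovered reads, 65 with the length trend removed and 53 with quantile normalization, where the median was 0.12. The test called 13 members higher and 0 lower (48 and 0 at an unadjusted p under 0.05, and 10 and 0 called with voom), and limma called 5.88% of all tested genes higher and 7.68% lower. Of all 12320 tested genes, 1775 were higher and 2602 lower at an unadjusted p under 0.05, and voom called 680 and 1337. In 58 members every NICeCA library was above every Ctrl library, as in 16.5% of all tested genes, and in no member was it the other way round, which was the case for 24.4% of all. Both shares come from the contrast that picked the members, and nothing is read from them.

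The 13 called members were Ndufa1, Ndufb2, Ndufb6 and Ndufs5 of complex I, Uqcrb and Uqcrq of complex III, Cox6c, Cox7a1, Cox7a2 and Cox7b of complex IV, and Atp5e, Atp5j2 and Atp5l of complex V. In order of adjusted p, the members just inside the threshold had log2 fold changes of 0.53 (Cox7a2), 0.54 (Atp5l) and 0.52 (Ndufb2), and those just outside it 0.58 (Atp5k), 0.48 (Ndufb9) and 0.57 (Cox7c). The number of calls changed with the library left out, both for members and over the whole table, and such fits have fewer libraries. With all libraries, 5.88% of all tested genes were called higher. The log2 fold changes of the 13 called members stayed between 0.43 (Ndufs5) and 0.90 (Uqcrb) with any 1 library left out. Without NICeCA replicate 1 or without NICeCA replicate 2 none of the 80 was called (limma), when 0.739% and 0.211% of all genes were called higher. Without Ctrl replicate 1 or Ctrl replicate 2 only Uqcrb was called (4.05% and 1.96% of all genes higher), and without NICeCA replicate 3 or Ctrl replicate 3 the counts were 11 and 13 (4.15% and 7.41%). With NICeCA replicate 1 or NICeCA replicate 2 left out, 25 and 28 members were higher and 0 lower at an unadjusted p under 0.05. Of all 12320 tested genes, 1257 and 1167 were then higher, and 1754 and 1574 lower. The median of the members moved less and was 0.26 without NICeCA replicate 1, 0.34 without NICeCA replicate 2 and 0.41 without NICeCA replicate 3. Under quantile normalization, 2 members were called (Cox7a1 and Uqcrb, with 3.52% of all genes higher), and with trimmed mean scaling 28 (8.21%).

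**Figure D1:**
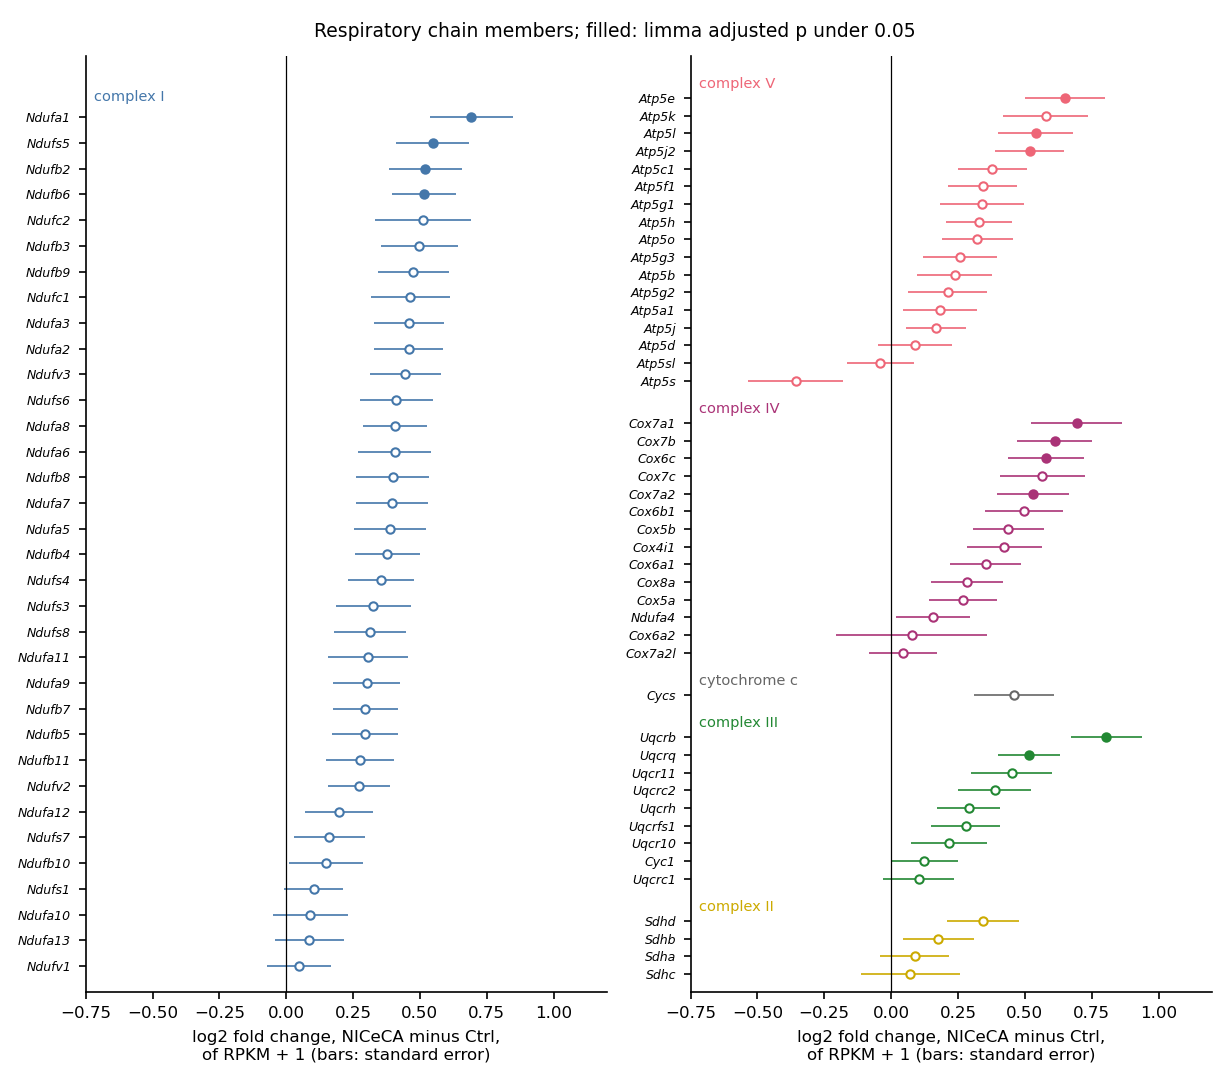
Each point is the log2 fold change of RPKM + 1 (NICeCA minus Ctrl) of 1 tested member (79 of the 80 are drawn), with its standard error as a bar, grouped by complex, and filled points are the 13 members called by limma. All points but those of Atp5s and Atp5sl lie to the right of 0, and 53 of the 80 do so after quantile normalization.

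The NICeCA libraries were not equally high. NICeCA replicate 1 was the highest of the 6 libraries in 66 of the 80 tested members, NICeCA replicate 2 in 11 and NICeCA replicate 3 in 0, while Ctrl replicate 1 was the lowest in 42, Ctrl replicate 2 in 15 and Ctrl replicate 3 in 19. The median deviation of the members from their own mean was -0.22, -0.12 and -0.12 in the Ctrl libraries and 0.31, 0.15 and 0.04 in the NICeCA libraries on the log2 scale, where the same median over all tested genes stayed between -0.05 and 0.08. NICeCA replicate 3 thus stood closest to the Ctrl libraries, and it also had the highest sum of neutrophil markers (1762 RPKM) and the lowest sum of macrophage markers (4258 RPKM). NICeCA replicate 1 had 8003 RPKM of macrophage markers, within the Ctrl range, and 670.1 RPKM of neutrophil markers, the lowest of the NICeCA libraries. Endothelial markers summed to 560.3, 729.9 and 673.5 RPKM in NICeCA replicates 1, 2 and 3. The deviation of all tested genes also followed row length in each library. At 519 bases its smoothed curve was at -0.21, -0.05 and -0.08 in the Ctrl libraries and 0.19, 0.11 and 0.04 in the NICeCA libraries. The part of markers or length in the order of the libraries was not tested.

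**Figure D2:**
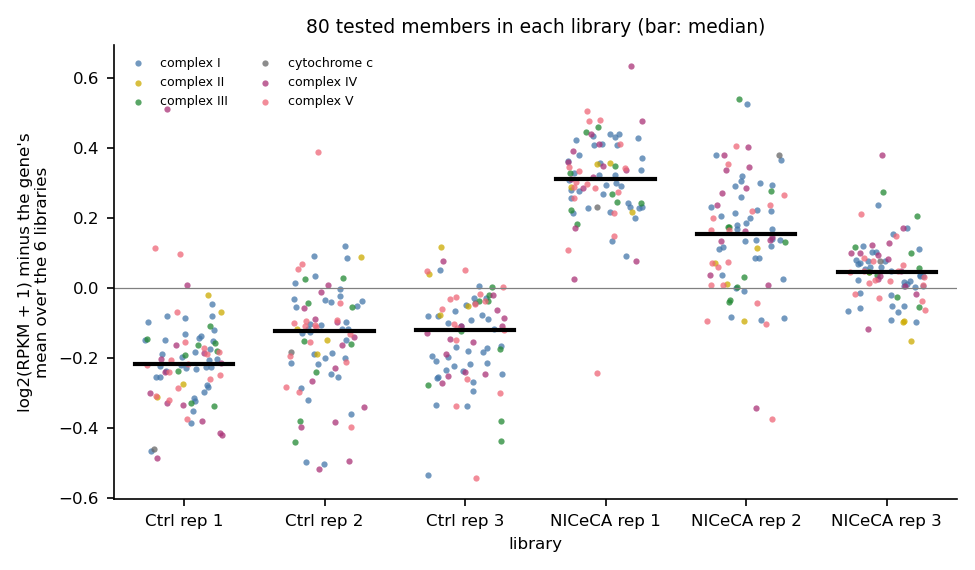
Each column is 1 library and each point a tested member, plotted as the deviation of its log2(RPKM + 1) from its mean over the 6 libraries, by complex. Black bars are medians, and those of NICeCA replicates 1, 2 and 3 (0.31, 0.15 and 0.04) lie above those of the Ctrl libraries (-0.22, -0.12 and -0.12).

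Complex I, the NADH dehydrogenase, had 35 members, all tested and all with a positive fold change (28 after quantile normalization). Its summed level was 1146, 1205 and 1162 RPKM in Ctrl and 1668, 1499 and 1368 RPKM in NICeCA libraries, and the median log2 fold change was 0.38. Ndufa1 (chromosome X, 37187589 to 37191238), a small X-linked membrane subunit needed to assemble the complex, had 34.6, 30.3 and 36.9 RPKM in Ctrl libraries, against 58.8, 62.7 and 45.6 RPKM in NICeCA libraries. The groups did not overlap, and no other subunit of the complex exceeded its log2 fold change of 0.69 (standard error 0.16). Ndufa3 (chromosome 7, 3617373 to 3620161), a membrane-bound supernumerary subunit, had 62.9, 61.4 and 63.4 RPKM in Ctrl, and 98.9, 83.7 and 77.7 RPKM in NICeCA, a log2 fold change of 0.46 (standard error 0.13). All 3 NICeCA values were higher, but the gene was not called, and its exons overlap those of Tfpt on the other strand. Ndufa7 (chromosome 17, 33824614 to 33838313), a supernumerary subunit of the matrix arm and with Ndufa3 the most abundant of the complex per length, had 63.1, 76.3 and 77.9 RPKM in Ctrl, and 102, 91.5 and 92.3 RPKM in NICeCA and a log2 fold change of 0.40 (standard error 0.13), not called. The lowest fold change belonged to Ndufv1 (chromosome 19, 4007505 to 4012725), the flavoprotein that binds NADH, with 31.3, 35.2 and 31.3 RPKM in Ctrl, and 36.5, 32.9 and 31.9 RPKM in NICeCA. Its groups overlapped, and the log2 fold change was 0.05 (standard error 0.12), or -0.12 after quantile normalization.

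The supernumerary subunits of complex I are mostly small proteins around its catalytic core. The 28 of them had a median log2 fold change of 0.40 and a median row length of 564 bases. Of the 28, 4 were called higher (5.88% of all tested genes were). In 23 the groups were separated with NICeCA higher, as in 16.5% of all tested genes. With the trend of each library on length removed, their median was 0.21 and none was called, and after quantile normalization it was 0.22. In limma with the length trend removed, 8 of the 35 members of complex I were higher at an unadjusted p under 0.05. Of all 12320 tested genes, 2065 were. The 3 other called subunits were Ndufb2 (0.52 (standard error 0.14)), Ndufb6 (0.51 (standard error 0.12)) and Ndufs5 (0.55 (standard error 0.14)), all small proteins of the membrane arm. Ndufb2 shares exon bases with Braf and Ndufb6 with Smim27, and Ndufs5 has a near-identical copy, BC002163, so their values are uncertain.

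Complex II, succinate dehydrogenase, is also an enzyme of the citric acid cycle and is wholly encoded in the nucleus. It moved least: the median log2 fold change of its 4 subunits was 0.13, and it was -0.06 after quantile normalization. Sdha (chromosome 13, 74322255 to 74350240), the flavoprotein that oxidizes succinate, had 34.2, 31.2 and 35.7 RPKM in Ctrl, and 40.5, 34.98 and 32.4 RPKM in NICeCA, and its log2 fold change was 0.09 (standard error 0.13). Sdhb (chromosome 4, 140961271 to 140979192), the iron-sulfur subunit, had 42.1, 40.7 and 41.9 RPKM in Ctrl, and 54.3, 46.6 and 41.4 RPKM in NICeCA, and its log2 fold change was 0.18 (standard error 0.13). For both, NICeCA replicate 1 was the highest library and the groups overlapped. Sdhc (chromosome 1, 171129157 to 171150603), a membrane anchor, ranged from 32.4 to 43.9 RPKM in Ctrl and from 36.3 to 51.9 RPKM in NICeCA libraries, with a log2 fold change of 0.07 (standard error 0.18). These 3 changes turned negative after quantile normalization (-0.08, -0.04 and -0.13). Sdhd (chromosome 9, 50596340 to 50603849), the other anchor, was the only one with separated groups, at 41.2, 43.8 and 48.3 RPKM in Ctrl, and 64.3, 54.3 and 51.7 RPKM in NICeCA, and a log2 fold change of 0.34 (standard error 0.13) was measured. Limma called none of the 4, with or without voom, and only Sdhd was under an unadjusted p of 0.05.

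Complex III, the cytochrome bc1 complex, had 9 members with a median log2 fold change of 0.29, or 0.01 after quantile normalization. Uqcrb (chromosome 13, 66900621 to 66905350), a small subunit beside the ubiquinone site, had 40.9, 37.8 and 37.9 RPKM in Ctrl libraries, against 71.5, 75.6 and 59.7 RPKM in NICeCA libraries. The groups were 38.9 ± 1.76 RPKM in Ctrl and 68.9 ± 8.22 RPKM in NICeCA TECs (SD, n = 3 each), with no overlap, and the log2 fold change of 0.81 (standard error 0.13) (95% interval 0.50 to 1.11) was the largest of all members. It lay between 0.74 and 0.90 with 1 library left out, and it was 0.58 with the length trend removed and 0.56 after quantile normalization, where it was still called. Uqcrb overlaps exons of Gm10767 on the other strand and has 3 near-identical copies (Gm16089, Gm2962 and Gm5457), so that reads could be shared among them. Uqcrq, another small subunit, was called with 0.52 (standard error 0.12). Among the abundant subunits, Uqcr10 (chromosome 11, 4701968 to 4704344) had 113, 122 and 116 RPKM in Ctrl, and 161, 126 and 124 RPKM in NICeCA, a log2 fold change of 0.22 (standard error 0.14). Uqcrh (chromosome 4, 116066965 to 116075070), the hinge protein that helps bind cytochrome c, had 88.9, 86.4 and 84.95 RPKM in Ctrl, and 112, 108 and 98.6 RPKM in NICeCA, a log2 fold change of 0.29 (standard error 0.12). Neither was called, the groups did not overlap in either, and both changes were negative after quantile normalization (-0.15 and -0.05).

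Among the larger core proteins of complex III, Uqcrc1 and Cyc1 had low values, and Uqcrc2, another core protein, had a log2 fold change of 0.39 (0.37 with the length trend removed). Uqcrc1 (chromosome 9, 108936648 to 108949641), a core subunit of the matrix side, had 46.1, 52.2 and 49.9 RPKM in Ctrl, and 60.8, 49.95 and 49.2 RPKM in NICeCA, and its log2 fold change was 0.10 (standard error 0.13), the lowest of the complex. Cyc1 (chromosome 15, 76343523 to 76345934), the cytochrome c1 that passes electrons on, had 29.02, 33.9 and 32.8 RPKM in Ctrl, and 37.9, 32.3 and 34.3 RPKM in NICeCA, a log2 fold change of 0.12 (standard error 0.12). The groups overlapped in both, and after quantile normalization the values were -0.15 and -0.05. The 4 core subunits had a median of 0.20 (-0.02 after quantile normalization) and the 5 supernumerary ones 0.45 (0.13), at median row lengths of 1484 and 499 bases. With the length trend removed these medians were 0.12 and 0.23, and their difference was not tested. Cycs (chromosome 6, 50562563 to 50566474), the soluble cytochrome c that links complexes III and IV, had 13.4, 16.5 and 18.3 RPKM in Ctrl, and 22.3, 24.9 and 19.99 RPKM in NICeCA. Its groups did not overlap, and although its row is the longest of all members, at 3059 bases, its log2 fold change was 0.46 (standard error 0.15) and was 0.53 with the length trend removed. Cycs was not called and has 4 near-identical copies in the annotation.

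Complex IV, cytochrome c oxidase, had 18 members, of which 14 passed the filter, all 14 with a positive fold change (9 after quantile normalization) and a median of 0.43 (0.10 after quantile normalization). Cox4i1 (chromosome 8, 120668290 to 120674209), the ubiquitous form of the largest nuclear-encoded subunit, was the most abundant member per length, with 229, 218 and 217 RPKM in Ctrl libraries, against 336, 302 and 257 RPKM in NICeCA libraries. Its groups did not overlap, and its log2 fold change was 0.42 (standard error 0.14), not called. Cox8a (chromosome 19, 7215158 to 7217616), the ubiquitous form of the smallest subunit, had 191, 213 and 199 RPKM in Ctrl, and 276, 222 and 237 RPKM in NICeCA, and its log2 fold change was 0.28 (standard error 0.14). Cox6a1 (chromosome 5, 115345654 to 115348955) had 125, 133 and 119.9 RPKM in Ctrl, and 182, 156 and 147 RPKM in NICeCA, and its log2 fold change was 0.35 (standard error 0.13). All 3 were close to 0 after quantile normalization (-0.01, -0.08 and -0.01). Besides the Cox7a genes, the called members were Cox6c, at 0.58 (standard error 0.14), and Cox7b, at 0.61 (standard error 0.14), and both have 2 near-identical copies.

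Isoforms of complex IV that mark heart and skeletal muscle were low. Cox7a1 (chromosome 7, 30184171 to 30186030), the muscle form of subunit VIIa, had 2.52, 2.33 and 3.29 RPKM in Ctrl, and 6.29, 4.72 and 4.11 RPKM in NICeCA. Its groups did not overlap, on 34 to 84 reads per library, and the log2 fold change of 0.69 (standard error 0.17) was the highest of the complex. Cox7a2 (chromosome 9, 79755241 to 79759853), the ubiquitous form, had 35.05, 38.03 and 41.4 RPKM in Ctrl, and 57.2, 61.05 and 48.7 RPKM in NICeCA and a log2 fold change of 0.53 (standard error 0.14), also called. Cox7a1 made up 6.71, 5.78 and 7.37% of the RPKM of the pair in Ctrl and 9.90, 7.18 and 7.78% in NICeCA libraries, so the shares overlapped. Cox7a2l (chromosome 17, 83501917 to 83514333), which despite its name binds complexes III and IV together into supercomplexes, had 131, 131 and 122 RPKM in Ctrl, and 132, 146 and 119.5 RPKM in NICeCA. The groups overlapped, with a log2 fold change of 0.05 (standard error 0.13), the lowest of the complex, which was -0.07 with the length trend removed and -0.30 after quantile normalization. Cox6a2 (chromosome 7, 128205435 to 128206366), the muscle form of subunit VIa, had 5.63, 2.25 and 3.31 RPKM in Ctrl, and 3.91, 2.67 and 5.05 RPKM in NICeCA and a log2 fold change of 0.08 (standard error 0.28), and its exons overlap Itgad. It made up 1.66 to 4.31% of the Cox6a pair. Skeletal muscle markers were at 9.97 to 32.5 RPKM in Ctrl and 11.3 to 14 RPKM in NICeCA libraries, with 0 of 6 tested called, and their part in the Cox7a1 value was not tested.

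The 4 members under the filter were all isoforms of complex IV. Cox6b2, a testis form, had 0.466, 0.582 and 0.637 RPKM in Ctrl and 0.454, 1.08 and 0.400 RPKM in NICeCA libraries, on 9 to 23 reads. Cox8b, a form of muscle and brown fat, had 0.141, 0 and 0.0706 RPKM in Ctrl and 0.302, 0.390 and 0 RPKM in NICeCA libraries, on at most 5 reads. Cox8c had 1 read in NICeCA replicate 2 and none elsewhere, and Cox7b2 had none in any library.

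Complex V, the ATP synthase, had 17 members with a median log2 fold change of 0.32, or 0.05 after quantile normalization. Atp5b (chromosome 10, 128083307 to 128090388), the catalytic beta subunit, was its most abundant member, with 194, 214 and 231 RPKM in Ctrl libraries, against 282, 241 and 232 RPKM in NICeCA libraries. The lowest NICeCA library lay just above the highest Ctrl library, and the log2 fold change was 0.24 (standard error 0.14), or -0.18 after quantile normalization. Atp5e (chromosome 2, 174461075 to 174464101), the epsilon subunit of the central stalk, had 122, 115 and 127 RPKM in Ctrl libraries, against 216, 202 and 159 RPKM in NICeCA libraries. Called by limma, it had the highest log2 fold change of the complex, 0.65 (standard error 0.15). The c ring is the rotor in the membrane, and Atp5g1, Atp5g2 and Atp5g3 encode the same mature c protein with different import sequences. Atp5g1 (chromosome 11, 96072793 to 96075694) had 35.4, 38.9 and 39.3 RPKM in Ctrl, and 59.8, 41.4 and 45.1 RPKM in NICeCA, with a log2 fold change of 0.34 (standard error 0.16). Atp5g2 (chromosome 15, 102662868 to 102671047) had 128, 139.5 and 109 RPKM in Ctrl, and 164, 135 and 136 RPKM in NICeCA, with overlapping groups and a log2 fold change of 0.21 (standard error 0.15). Atp5g3 (chromosome 2, 73908450 to 73911294) had 69.5, 75.3 and 77.8 RPKM in Ctrl, and 103, 85.2 and 79.5 RPKM in NICeCA, with a log2 fold change of 0.26 (standard error 0.14). After quantile normalization these were 0.13, -0.15 and -0.08. Atp5g2 supplied 48.2 to 55.0% of the summed RPKM of the 3 genes in Ctrl and 50.2 to 52.2% in NICeCA libraries, Atp5g1 15.2 to 17.4% and 15.8 to 18.3%, and Atp5g3 29.7 to 34.4% and 30.5 to 32.6%, so that the mix of c genes overlapped between the groups. Atp5g1 and Atp5g2 have 2 near-identical copies each.

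The small membrane subunits e, f and g of complex V, which hold its dimers together, had the largest changes of the complex as a group. Atp5j2 (f), Atp5k (e) and Atp5l (g) together were at 246, 250.3 and 236 RPKM in Ctrl and 393, 356 and 324 RPKM in NICeCA libraries. Their log2 fold changes were 0.52 (standard error 0.13), 0.58 (standard error 0.16) and 0.54 (standard error 0.14), the median 0.54 (0.20 after quantile normalization and 0.32 with the length trend removed), and Atp5l has 9 copies in the annotation. The 5 subunits of the F1 head and central stalk had a median of 0.24 (-0.18 after quantile normalization), the 3 c genes 0.26 (-0.08) and the 4 stator subunits 0.33 (0.02). With the length trend removed these 3 medians were 0.22, 0.06 and 0.12. Median row lengths were 1800, 679 and 765 bases in these groups, and 477 bases for e, f and g. The lowest member was Atp5s (chromosome 12, 69724962 to 69744658), coupling factor B, which is not a fixed subunit of the enzyme. It had 1.16, 1.64 and 1.09 RPKM in Ctrl, and 0.701, 0.553 and 1.14 RPKM in NICeCA, on 29 to 97 reads, with overlapping groups and a log2 fold change of -0.36 (standard error 0.18). Atp5sl, known as Dmac2 and also no subunit, had -0.04 (standard error 0.12). Without Atp5s, Atp5sl and Cox7a2l, the other 77 tested members all had positive fold changes (52 after quantile normalization) and a median of 0.34.

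Row length moved with the result. The median row length of the tested members was 680 bases and that of all tested genes 2733 bases, and across the table fold changes depended on length. Over the 80 members the log2 fold change fell with log10 length (Pearson's r = -0.55, Spearman's rho = -0.59, across genes of the same 6 libraries, which are not independent), and over all 12320 tested genes r was -0.21 and rho -0.29. Compared within length classes, members stayed above other genes. Tested rows go down to 20 bases and the members to 292, so the shortest class also holds rows shorter than any member. Under 500 bases the median log2 fold change was 0.52 for 15 members and -0.06 for 416 other genes. From 500 to 700 bases it was 0.41 for 27 members and 0.22 for 250 others, from 700 to 1000 bases 0.31 for 10 and 0.20 for 563, from 1000 to 2000 bases 0.25 for 22 and 0.06 for 2792, and from 2000 to 4000 bases 0.14 for 6 and -0.06 for 4784. No member was longer than 4000 bases, where the other 3435 genes had a median of -0.20.

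When the trend of each library on length (lowess, span 0.3) was subtracted before the fit, the median of the members fell from 0.34 to 0.19, against 0.00 over all tested genes, and 65 of 80 were positive. Uqcrb alone was then called, while 590 genes of the whole table (4.79%) were called higher and 206 lower. By complex the medians were 0.19 for complex I, 0.09 for II, 0.19 for III, 0.22 for IV and 0.17 for V. In the length classes from short to long, the members' medians became 0.29, 0.19, 0.14, 0.18 and 0.19. Those of the other genes became -0.093, -0.004, 0.025, -0.007 and -0.004. With both the length trend removed and NICeCA replicate 1 left out, 59 of the 80 members were positive. In the same fit without any library left out, correlation of the members' fold change with log10 length was -0.16 (rho -0.23, n = 80 members).

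**Figure D3:**
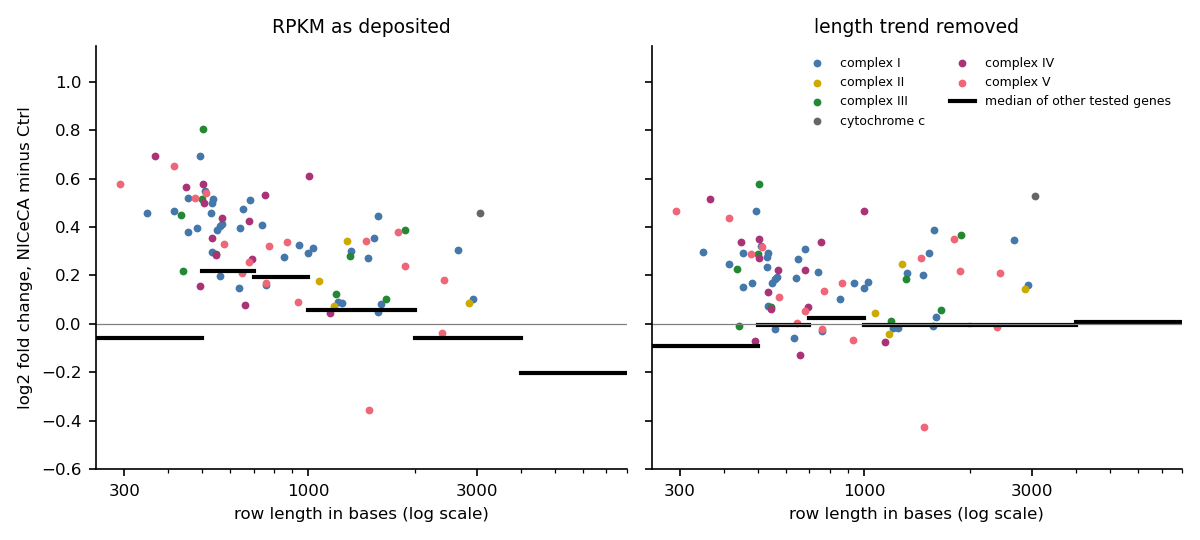
The log2 fold change (NICeCA minus Ctrl) of each tested member is plotted against its row length in bases on a log axis, before (left) and after (right) the length trend of each library was removed, and black lines are medians of the other tested genes per length class. Members sit above the black line of their class on average on both sides, with class medians of 0.14 to 0.52 before and 0.14 to 0.29 after, and after quantile normalization their overall median was 0.12.

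Other protein complexes of many small subunits gave a scale for these values. For their counts of calls, limma called 5.88% of all tested genes higher and 7.68% lower. At an unadjusted p under 0.05 in limma, 1775 of all 12320 were higher and 2602 lower, and voom called 680 and 1337. The 94 tested cytosolic ribosomal proteins had a median log2 fold change of 0.20 with 0 called by limma, 21 higher and 2 lower at an unadjusted p under 0.05 and 0 with voom (median 0.03 with the length trend removed, -0.05 after quantile normalization). The 76 mitochondrial ribosomal proteins, also made in the nucleus and imported, had 0.12 with 2 called (0.00 and 0.10). The 38 tested proteasome subunits had 0.30 with 6 called (0.21 and 0.11), close to the respiratory members (0.34, 0.19 and 0.12). Whether any of these medians differ was not tested.

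The isoforms left out of the member list are linked to low oxygen, and both were called higher, but neither with the length trend removed. The study reported reduced hypoxia in tumors of NICeCA mice, and the part of oxygen in these values was not tested. Ndufa4l2 (chromosome 10, 127514939 to 127517156), a paralog of Ndufa4 induced by hypoxia, had 2.60, 1.93 and 3.64 RPKM in Ctrl libraries, against 6.96, 6.11 and 12.4 RPKM in NICeCA libraries. It was called, with a log2 fold change of 1.32 (standard error 0.26), which was 1.17 with the length trend removed. Ndufa4 itself, a complex IV subunit, had 43.1, 52.98 and 56.3 RPKM in Ctrl, and 60.3, 54.8 and 54.4 RPKM in NICeCA, with overlapping groups and a log2 fold change of 0.16 (standard error 0.14), which was -0.07 with the length trend removed. Ndufa4l2 made up 5.69, 3.51 and 6.08% of the RPKM of the pair in Ctrl and 10.4, 10.03 and 18.6% in NICeCA libraries, without overlap. Cox4i2 (chromosome 2, 152754173 to 152765037), the hypoxia-linked form of Cox4i1 and in many tissues a pericyte gene, had 0.634, 0.933 and 1.41 RPKM in Ctrl, and 1.88, 2.03 and 3.10 RPKM in NICeCA. It was called with a log2 fold change of 0.74 (standard error 0.20), on only 18 to 84 reads per library. With the length trend removed, this fold change was 0.55. Cox4i2 made up 0.277 to 0.647% of the Cox4i pair in Ctrl and 0.557 to 1.19% in NICeCA libraries, which overlap. The sum of pericyte markers, 26.6 to 42.5 RPKM in Ctrl and 57.3 to 104.8 RPKM in NICeCA libraries, was highest in NICeCA replicate 3, as were Ndufa4l2 and Cox4i2, and its part in them was not tested.

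Genes that assemble the complexes were called in both directions, at shares not far from those of all tested genes. Of 45 assembly factors in the table, 44 were tested, and 2 were called higher and 2 lower, where 5.88% and 7.68% of all tested genes were. At an unadjusted p under 0.05 in limma, 7 of the 44 were higher and 5 lower, against 1775 and 2602 of 12320 tested genes. With the length trend removed, 0 of the 44 were called higher and 1 lower, against 590 and 206 of all tested genes. At an unadjusted p under 0.05 in limma, 4 and 3 of the 44 were, against 2065 and 1897 of all. Their median log2 fold change was -0.02 (0.08 after quantile normalization and 0.02 with trimmed mean scaling). Coa4 (chromosome 7, 100537100 to 100539812), a complex IV assembly factor, had 5.28, 3.73 and 5.41 RPKM in Ctrl, and 10.1, 7.98 and 7.99 RPKM in NICeCA, with a log2 fold change of 0.74 (standard error 0.16). Pet117 (chromosome 2, 144368983 to 144373337), which also serves complex IV, had 10.9, 13.7 and 9.87 RPKM in Ctrl, and 7.83, 6.95 and 6.34 RPKM in NICeCA, with -0.63 (standard error 0.15). The other called genes, named after their values were seen, were Pet100 of complex IV, higher with 0.58 (standard error 0.13), and Ttc19 of complex III, lower with -0.55 (standard error 0.12). The 30 mitochondrial membrane and cristae genes had a median of 0.04 (-0.03 after quantile normalization) and limma called none, with or without voom (6 higher and 1 lower at an unadjusted p under 0.05), with Vdac1, the outer membrane channel, at the top (0.50 (standard error 0.16)) and Mfn1, a fusion factor, at the bottom (-0.29 (standard error 0.11)).

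Nuclear regulators of respiratory genes had 1 gene called higher and 4 lower of 21 tested (1 and 1 with the length trend removed). Their median was -0.06 (0.05 after quantile normalization). Over all tested genes limma called 5.88% higher and 7.68% lower, and 4.79% higher with the length trend removed. At an unadjusted p under 0.05 in limma, 1 regulator was higher and 7 lower, against 1775 and 2602 of 12320 tested genes. The median row length of the regulators was 3488 bases, against 2733 bases over all tested genes. Pprc1 (chromosome 19, 46056539 to 46072909), a coactivator of the PGC-1 family, had 9.65, 18.8 and 11.5 RPKM in Ctrl libraries, against 3.004, 5.11 and 6.33 RPKM in NICeCA libraries, with a log2 fold change of -1.29 (standard error 0.28). Sirt1 (chromosome 10, 63319005 to 63339035), a deacetylase that acts on PGC-1 coactivators, had 4.45, 3.90 and 5.01 RPKM in Ctrl, and 7.34, 7.87 and 6.47 RPKM in NICeCA, with 0.59 (standard error 0.13). The other genes called lower, named after their values were seen, were Ppargc1b (-0.66 (standard error 0.14)), also of the PGC-1 family, Hcfc1 (-0.82 (standard error 0.17)), a transcriptional coregulator, and Polrmt (-0.64 (standard error 0.15)), the mitochondrial RNA polymerase. Of the factors whose letters were searched in the promoters, those in this list were not called: Nrf1 at -0.06 (standard error 0.12), Gabpa at -0.00 (standard error 0.13), Yy1 at -0.06 (standard error 0.11) and Esrra at 0.14 (standard error 0.13). Ppargc1a, which encodes PGC-1alpha, was between 0.0271 and 0.0868 RPKM in all libraries and was not tested.

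Among carriers, uncouplers and inhibitors, 5 of 18 tested genes were called higher and 0 lower, with a median of 0.26 (0.11 after quantile normalization). The counts were 7 and 1 at an unadjusted p under 0.05, 4 and 0 with voom, and 1 and 0 with the length trend removed. Of all 12320 tested genes, 1775 and 2602 passed the unadjusted threshold in limma, and voom called 680 and 1337. Over all tested genes limma called 5.88% higher and 7.68% lower, and 4.79% higher with the length trend removed. The 5 called genes include Ndufa4l2 and Cox4i2 above. The others, named after their values were seen, were Higd1a, Usmg5 and Chchd2. Higd1a (chromosome 9, 121848560 to 121858000), a hypoxia-induced partner of complex IV, had 8.30, 8.63 and 10.3 RPKM in Ctrl, and 19.1, 19.5 and 17.5 RPKM in NICeCA, with a log2 fold change of 0.97 (standard error 0.12). Usmg5 (chromosome 19, 47083471 to 47090625), a small ATP synthase subunit that the name rule does not catch, had 56.5, 71.7 and 82.9 RPKM in Ctrl, and 109, 128 and 97.6 RPKM in NICeCA, with 0.66 (standard error 0.18). Chchd2, which acts in mitochondria and nucleus, had 0.52 (standard error 0.12). Gpd2 (chromosome 2, 57237678 to 57370719), the mitochondrial glycerol-3-phosphate dehydrogenase, had the lowest value of the list, -0.44 (standard error 0.17), with overlapping groups.

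**Figure D4:**
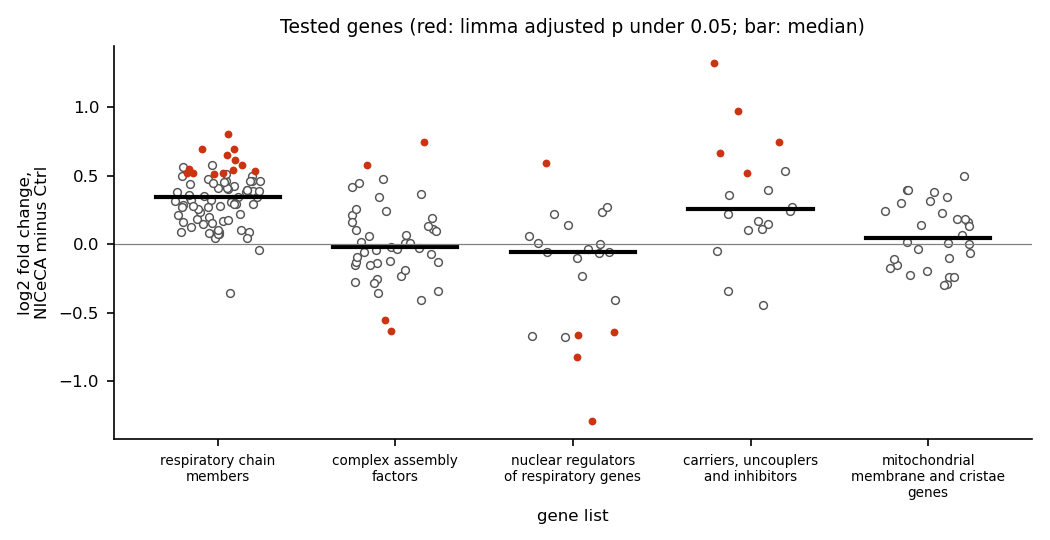
Each point is the log2 fold change (NICeCA minus Ctrl) of 1 tested gene, in 5 columns for the respiratory chain members and the related lists, with red points for genes called by limma and bars for medians. Medians are 0.34 for members, -0.02 for assembly factors, -0.06 for regulators, 0.26 for carriers and 0.04 for membrane genes, and after quantile normalization 0.12, 0.08, 0.05, 0.11 and -0.03.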

How the data were processed

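TECs of 3 Ctrl and 3 NICeCA mice were profiled by bulk RNA-seq. The deposited values are RPKM made by the authors. The submitters' processing notes name TopHat2 for the alignment. The sources used here name no counting tool and do not say whether strand was used. Genes that overlap on opposite strands may therefore share reads. The notes name mm9, but 99.4% of RefSeq rows with a known symbol lie on that gene in GRCm38, whose positions are given. RPKM times length gave whole reads (within 0.05) for 100% of values under 1000 reads, and the depth recovered in this way was 27793301 to 30769916 reads on RefSeq rows. Counting error is largest for the 7 members with under 100 reads in a library.

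Members, gene lists and tests were chosen with earlier results of these data known. log2(RPKM + 1) was compared with limma 3.58.1 in R 4.3.3 (eBayes with the mean-variance trend, two-sided), without a replicate block, over RefSeq rows with a mean of at least 1 RPKM. The labels have tumors dissected on different days, while the study's methods give a single day and speak of pairs of mice. Neither says which libraries share a day or form a pair, so an effect of the day on the spread or the contrast was not tested, and p-values measure the spread between these 6 samples. Row length was handled by subtracting from each library a lowess curve (span 0.3) of the deviation of log2(RPKM + 1) from the gene's mean on log10 length. Alternatives were quantile normalization, trimmed mean scaling (libraries scaled by a mean of log ratios without the extremes), all rows or only those of at least 5 RPKM, 0.1 as pseudocount, no variance trend, limma voom on the recovered reads, the replicate block and leaving out each library. The span of 0.6 for counts and the length fit with libraries left out were added after seeing the data. The limma fit and the length correction were also run on simulated data, without a mixture of cell types. The other alternatives were not simulated. Values named by gene are those of the 2 most abundant members and of the highest and lowest fold change of complexes I, III, IV and V, of complex II, Cyc1 and Cycs, of families with isoforms, of the excluded isoforms, of the extremes of each list and of members under 1 RPKM. Other genes named were chosen after their values were seen. Overlaps and copies (at least 95% identity over 150 bases) come from the GENCODE annotation of GRCm38, and promoters from RefSeq. FANTOM3 rows, which cover the same exons, were left out of the fits. Markers of 10 cell types were summed per library. No row for subunits encoded in mitochondrial DNA is among the RefSeq rows. Single-cell and other experiments of the study were not analysed here. One tested member is counted in the summaries and is not reported by name here.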

Additional observations from a re-analysis of the deposited data

Results flagged for a closer look

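Subunits encoded in mitochondrial DNA have no RefSeq row, but a FANTOM3 row that the comparisons do not use lies over mt-Co3 and mt-Nd3, on the opposite strand (chromosome M, 9203 to 9888). It was flagged as a signal outside the main measurement because every NICeCA library was above every Ctrl library. The lack of overlap is thus the rule that picked it. It had 879, 709 and 778 RPKM in Ctrl and 902, 1274 and 1210 RPKM in NICeCA libraries, on 19381 to 30906 reads, without overlap between the groups. The difference on the log2(RPKM + 1) scale was 0.51 and was not tested. NICeCA replicate 1, in which most nuclear members were highest, was the lowest NICeCA library here. A row over mt-Nd6 (chromosome M, 13570 to 14143) had 185, 165 and 329 RPKM in Ctrl and 254, 300.3 and 464 RPKM in NICeCA libraries, which overlap. Rows at 15356 to 16294, 15763 to 16188 and 15863 to 16188, which share bases and lie over no subunit gene, had separated groups too. Their differences were 0.62, 0.61 and 0.60, and NICeCA replicate 1 was the lowest NICeCA library in each. The other rows of chromosome M had at most 158 reads in a library. Since the use of strand in counting is not known, reads of the genes on either strand cannot be told apart in these rows.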

How the results depend on the processing

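The median of the members was positive under every alternative, from 0.12 with quantile normalization to 0.41 without NICeCA replicate 3 (0.40 with trimmed mean scaling, 0.34 for structural subunits alone). With the length trend removed it was 0.19 (also 0.19 at a span of 0.6 and in the replicate block), and between 0.15 and 0.24 with 1 library left out as well. By complex, quantile normalization gave 0.19 for I, -0.060 for II, a reversal, 0.012 for III, 0.098 for IV and 0.047 for V, and removal of the length trend, with either span or in the block, gave 0.19 for I, 0.19 for III, 0.22 for IV and 0.17 (span 0.6: 0.18) for V. With 1 library left out, complex V lay between 0.19 and 0.39.

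Counts moved more. Members called higher numbered 2 with quantile normalization, 28 with trimmed mean scaling, 1 with no filter, 1 with the length trend removed at either span, and 0 to 13 with 1 library left out, or 0 to 1 with the length trend removed too. Over the whole table, quantile normalization called 434 genes higher and 319 lower, no filter 260 and 105, the filter at 5 RPKM 579 lower, and removal of the length trend 206 lower (208 at span 0.6). With 1 library left out, 26 to 913 genes were higher and 1 to 832 lower, and with the length trend removed too, 1 to 840 and 0 to 484 (447 and 86 without Ctrl replicate 1, 188 and 36 without Ctrl replicate 2, 59 and 2 without NICeCA replicate 1, 122 and 26 without NICeCA replicate 3). Genes higher in NICeCA made up 43.4% of the calls as deposited, 57.6% with quantile normalization, 58.5% with trimmed mean scaling, 33.7% with voom, 71.2% with no filter and 74.1% with the length trend removed.

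Assembly factors called higher numbered 5 with trimmed mean scaling, 0 with no filter or the length trend removed, and 0 to 2 with 1 library left out. Those called lower numbered 0 with quantile normalization or no filter, 1 at 5 RPKM, with voom or with the length trend removed, and 0 to 2 with 1 library left out. Regulators called higher fell to 0 with no filter, and those called lower numbered 1 with quantile normalization, no filter or the length trend removed, 7 with voom, and 0 to 5 with 1 library left out, where 0 to 1 were higher. Carriers called higher numbered 3 with quantile normalization, 1 with no filter or the length trend removed, and 0 to 5 with 1 library left out. Trimmed mean scaling called 2 membrane genes higher.

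With replicate numbers as a block, 327 genes were higher and 209 lower, 1 member (Uqcrb), 1 assembly factor, 0 regulators and 2 carriers were higher, and 0 assembly factors and 2 regulators were lower. With the block and the length trend removed, these were 183 and 13 genes, 0 members and 2 carriers. Assembly factors and regulators numbered 0 in both directions. At an unadjusted p under 0.05 in limma, 8 members were higher in that fit, against 1646 of 12320 tested genes. Deviations of same-numbered libraries correlated at 0.12, -0.34 and -0.18, so the replicate numbers do not show pairs. Other combinations ranged from -0.32 to 0.44. They were 0.27 for Ctrl replicate 1 with NICeCA replicate 2, 0.44 for Ctrl replicate 2 with NICeCA replicate 3, and 0.097 for Ctrl replicate 3 with NICeCA replicate 1. Whether mice were paired in another order cannot be read from these values, and no block other than the replicate numbers was fitted.

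Of the 80 tested members, 53 were positive with quantile normalization and 65 with the length trend removed, against 78 as deposited. Among the members whose values the text describes by the rule for named genes, those that changed sign with quantile normalization were Atp5b (-0.18), Atp5g2 (-0.15), Atp5g3 (-0.076), Cox4i1 (-0.0059), Cox6a1 (-0.012), Cox7a2l (-0.30), Cox8a (-0.081), Cyc1 (-0.052), Ndufv1 (-0.12), Sdha (-0.083), Sdhb (-0.037), Sdhc (-0.13), Uqcr10 (-0.15), Uqcrc1 (-0.15) and Uqcrh (-0.053). With the length trend removed, also in the block, these were Cox6a2 (-0.13; span 0.6: -0.12), Cox7a2l (-0.073; span 0.6: -0.070), Ndufv1 (-0.0076 at both), Sdhc (-0.042; span 0.6: -0.039) and Uqcr10 (-0.0081), and of the other members Atp5d, Atp5j, Ndufa4, Ndufa10, Ndufa12, Ndufa13, Ndufb10 and Ndufs7 (-0.07 to -0.02). With 1 library left out, they were Cox6a2 (from -0.16 without Ctrl replicate 2 to 0.35 without Ctrl replicate 1), Cox7a2l (-0.024 without NICeCA replicate 2), Ndufv1 (from -0.0065 without NICeCA replicate 1 to 0.10 without Ctrl replicate 2) and Sdhc (-0.066 without Ctrl replicate 1, -0.086 without NICeCA replicate 1). The cause was not tested. Depth limits most the members with under 100 reads in a library (Cox7a1, Atp5s, Cox6a2, Cox6b2, Cox7b2, Cox8b and Cox8c).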
